A study of Mus musculus with 10 samples.

Results

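The GABA-A receptor subunit genes described here are *Gabra2*, *Gabra3*, *Gabra4*, *Gabra5*, *Gabrb1*, *Gabrb2* and *Gabrg3*. They were chosen by name and found as 7 of the 24453 gene rows of the count table, and they belong to a family of 19 subunit genes in that table. GABA-A receptors are chloride channels opened by the inhibitory transmitter GABA, built as pentamers of subunits around a central pore. The alpha and beta subunits form the GABA binding site between them, and a gamma subunit beside an alpha subunit forms the site for benzodiazepines. In the cortex the receptors carry the fast inhibition that interneurons exert on pyramidal neurons, and the alpha subunit present sets much of a receptor's kinetics and location.

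The cells were intratelencephalic projection neurons (IT-PNs) of layer 5 of the primary motor cortex. They came from male hemizygous *Fezf2-Gfp* reporter mice of the transgenic line (Zfp312-EGFP)CO61GsatMmnc, on a Swiss Webster background. The mice had received a fluorescent retrograde tracer in the opposite hemisphere at postnatal day 23 to 25. At postnatal day 28 to 32 the tracer-labeled cells of each animal were sorted into a GFP-positive sample (*Fezf2+ve* IT-PNs) and a GFP-negative sample (*Fezf2−ve* IT-PNs), so 5 animals gave 5 libraries of each type. Type was therefore set by the fluorescence of the transgene and the tracer, and no untraced or untreated group was used here. The question was which transcripts differ between both IT-PN types.

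The libraries were shallow. Reads counted on genes were 118134, 107643, 118069, 151591 and 203379 in *Fezf2+ve* libraries 1 to 5, and 167916, 89138, 168711, 211368 and 217738 in *Fezf2−ve* libraries 1 to 5. The total was higher in the *Fezf2−ve* library of 4 of 5 animals, animal 2 being the exception, and the ranges of the types overlapped. These totals sum the counts of all genes, and a read on overlapping genes can count for each of them, so a total can exceed the number of reads mapped. The 7 subunits together took 347 of the 1553687 counts, and *Gabrb1* and *Gabrg3* gave 285 of these (82.1%). The summed reads of the 7 subunits were 12, 25, 120, 22 and 28 in *Fezf2+ve* libraries 1 to 5 and 22, 17, 34, 26 and 41 in *Fezf2−ve* libraries 1 to 5. *Fezf2+ve* library 3 stood above all others, and the remaining libraries of both types overlapped. Reads were amplified and carried no molecular identifiers, so counting intervals and floors cover counting error only.

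The cell type labels were compared with marker genes. Of 8 markers of cortical excitatory projection neurons, 3 passed the filter for testing and *Tbr1* had 0 reads. The vesicular glutamate transporter gene *Slc17a7* had 11 reads in the 10 libraries, and of the 588 reads of *Camk2a* 529 lay in *Fezf2−ve* library 3. The 8 markers together had 635 reads, beside 4232 of the 13 microglia markers and 2300 of the 7 astrocyte markers. Markers of microglia moved with the type: their summed level was 254, 124, 82.9, 129 and 159 CPM (read counts scaled to a common library size, after TMM correction for library composition) in *Fezf2+ve* libraries 1 to 5 and 5865, 4188, 5941, 3019 and 4876 CPM in *Fezf2−ve* libraries 1 to 5. All 13 of 13 microglia markers were tested, and 0 were called at a false discovery rate at or below 0.1 (edgeR with the animal as a block). All 13 had a negative log2 fold change, and 11 had an unadjusted p under 0.05, beside 3.89% of all tested genes. None of the markers was at 0, and *Ctss* had the most reads. Their part in the values of the subunits was not tested, and in such bulk samples fewer cells of a type and less RNA per cell cannot be told apart.

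Among the alpha subunits, *Gabra3* had the most reads. *Gabra3* (chromosome X of GRCm38, 72432681 to 72656848, minus strand, protein-coding) encodes a subunit found early in cortical development and at some adult synapses. Its reads were 1, 1, 8, 3 and 2 in *Fezf2+ve* libraries 1 to 5 and 1, 0, 9, 1 and 8 in *Fezf2−ve* libraries 1 to 5. The highest libraries were *Fezf2+ve* library 3 and *Fezf2−ve* libraries 3 and 5, and the groups overlapped. On the log2(CPM + 1) scale its level was 4.17 ± 1.27 (SD, n = 5) in *Fezf2+ve* IT-PNs, against 3.34 ± 2.29 (SD, n = 5) in *Fezf2−ve* IT-PNs, and it was higher in the *Fezf2+ve* library of 4 of 5 animals. The log2 fold change of *Gabra3*, *Fezf2+ve* over *Fezf2−ve*, was 0.48 (standard error 1.16, 95% interval -1.93 to 2.89, adjusted p = 0.998 by edgeR's quasi-likelihood F-test, with Benjamini-Hochberg adjustment over all tested genes), and it ranged from 0.04 without animal 4 to 1.09 without animal 5.

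*Gabra2* (chromosome 5, 70957597 to 71095849, minus strand) encodes an alpha subunit that is enriched at synapses on the axon initial segment of pyramidal neurons. It had 0, 0, 2, 0 and 0 reads in *Fezf2+ve* libraries 1 to 5 and 1, 1, 1, 2 and 5 reads in *Fezf2−ve* libraries 1 to 5. All 5 *Fezf2−ve* libraries held a read, against 1 of 5 *Fezf2+ve* libraries, and the groups overlapped through *Fezf2+ve* library 3. Per read counted on genes, *Gabra2* was 4.09 times as frequent in *Fezf2−ve* libraries, with a counting interval from 0.871 to 38.4 (exact, 95%) that includes equal frequency. Its log2 fold change was -2.13 (standard error 1.87, 95% interval -6.07 to 1.80), and it was higher in the *Fezf2−ve* library of 4 of 5 animals. On the log2(CPM + 1) scale the level of *Gabra2* was 0.78 ± 1.74 (SD, n = 5) in *Fezf2+ve* IT-PNs, against 3.46 ± 0.98 (SD, n = 5) in *Fezf2−ve* IT-PNs. Without animal 3 the log2 fold change of *Gabra2* was -4.04, and without animal 5 it was -1.45. Its adjusted p in edgeR was 0.998 (Benjamini-Hochberg).

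*Gabra5* and *Gabra4* did not reach the filter of at least 10 CPM in at least 2 libraries and were not tested. *Gabra5* (chromosome 7, 57407672 to 57510059, minus strand), a subunit known from extrasynaptic receptors that carry tonic inhibition, had 5 reads. They lay in *Fezf2+ve* library 2 (1 read), *Fezf2−ve* library 1 (1 read) and *Fezf2−ve* library 4 (3 reads). The ratio of *Fezf2−ve* to *Fezf2+ve* reads of *Gabra5* was 3.27 with a counting interval from 0.324 to 161, so no difference was detectable at this depth. *Gabra4* (chromosome 5, 71569749 to 71658308, minus strand), which encodes another subunit of extrasynaptic receptors, had 0 reads in all 10 libraries. A count of 0 among 1553687 counts allows up to 1.93 CPM (3 reads of the total), and no fold change was computed for *Gabra4*.

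Among the beta subunits, *Gabrb1* was read in every library. *Gabrb1* (chromosome 5, 71658113 to 72149037, plus strand) encodes a beta subunit, which takes part in GABA binding and in receptor assembly. Its reads were 8, 11, 4, 15 and 4 in *Fezf2+ve* libraries 1 to 5 and 14, 10, 12, 17 and 8 in *Fezf2−ve* libraries 1 to 5. Both libraries of animal 4 were the highest of their type and both libraries of animal 5 were the lowest of theirs, in *Fezf2+ve* together with library 3, and the types overlapped. In CPM *Gabrb1* was at 65.6, 71.9, 27.6, 177 and 24.5 in *Fezf2+ve* and at 71.0, 86.2, 58.3, 132 and 44.4 in *Fezf2−ve* libraries 1 to 5. It was higher in the *Fezf2−ve* library of 4 of 5 animals, animal 4 being the exception. The level of *Gabrb1* on the log2(CPM + 1) scale was 5.85 ± 1.14 (SD, n = 5) in *Fezf2+ve* IT-PNs, against 6.21 ± 0.58 (SD, n = 5) in *Fezf2−ve* IT-PNs. The log2 fold change of -0.35 was smaller than its standard error of 0.93 (95% interval -2.29 to 1.59, adjusted p = 0.998 by edgeR after Benjamini-Hochberg adjustment). Reads in all 10 libraries were found for 914 of the 7409 tested genes (12.3%).

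*Gabrb2* (chromosome 11, 42419757 to 42629028, plus strand), whose product is the usual beta partner of the most common adult receptors, had 11 reads. They were 2, 1, 3, 0 and 0 in *Fezf2+ve* libraries 1 to 5 and 1, 0, 1, 1 and 2 in *Fezf2−ve* libraries 1 to 5. No library exceeded 3 reads and the groups overlapped. On the log2(CPM + 1) scale *Gabrb2* ran the other way from its fold change, at 2.30 ± 2.17 (SD, n = 5) in *Fezf2+ve* IT-PNs and 2.38 ± 1.40 (SD, n = 5) in *Fezf2−ve* IT-PNs. The log2 fold change of *Gabrb2* was 0.38 (standard error 1.70, 95% interval -3.15 to 3.91), it was higher in the *Fezf2+ve* library of 3 of 5 animals, and it turned to -0.08 without animal 2. Without animal 5 it was 1.09, and without animal 1 or animal 3 *Gabrb2* did not pass the filter.

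The gamma subunit gene *Gabrg3* (chromosome 7, 56716465 to 57387188, minus strand) had the most reads of the 7. Gamma subunits link the receptor to the postsynaptic scaffold. Its reads were 1, 11, 103, 4 and 22 in *Fezf2+ve* libraries 1 to 5 and 4, 6, 11, 2 and 18 in *Fezf2−ve* libraries 1 to 5. *Fezf2+ve* library 3 alone held 103 of 182 reads (56.6%), and without it *Gabrg3* had 79 reads and *Gabrb1* 99. *Fezf2+ve* library 1 lay below every *Fezf2−ve* library, so the groups overlapped. *Gabrg3* was at 8.20, 71.9, 712, 47.1 and 135 CPM in *Fezf2+ve* and at 20.3, 51.7, 53.5, 15.5 and 100 CPM in *Fezf2−ve* libraries 1 to 5, higher in the *Fezf2+ve* library of 4 of 5 animals. The level of *Gabrg3* on the log2(CPM + 1) scale was 6.31 ± 2.28 (SD, n = 5) in *Fezf2+ve* IT-PNs, against 5.32 ± 1.07 (SD, n = 5) in *Fezf2−ve* IT-PNs. Its log2 fold change was 1.02 (standard error 1.13, 95% interval -1.34 to 3.37, adjusted p = 0.998 by edgeR after Benjamini-Hochberg adjustment). Without animal 3 the log2 fold change of *Gabrg3* was 0.33, and without the animal as a block it was 2.00.

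**Figure D1:**
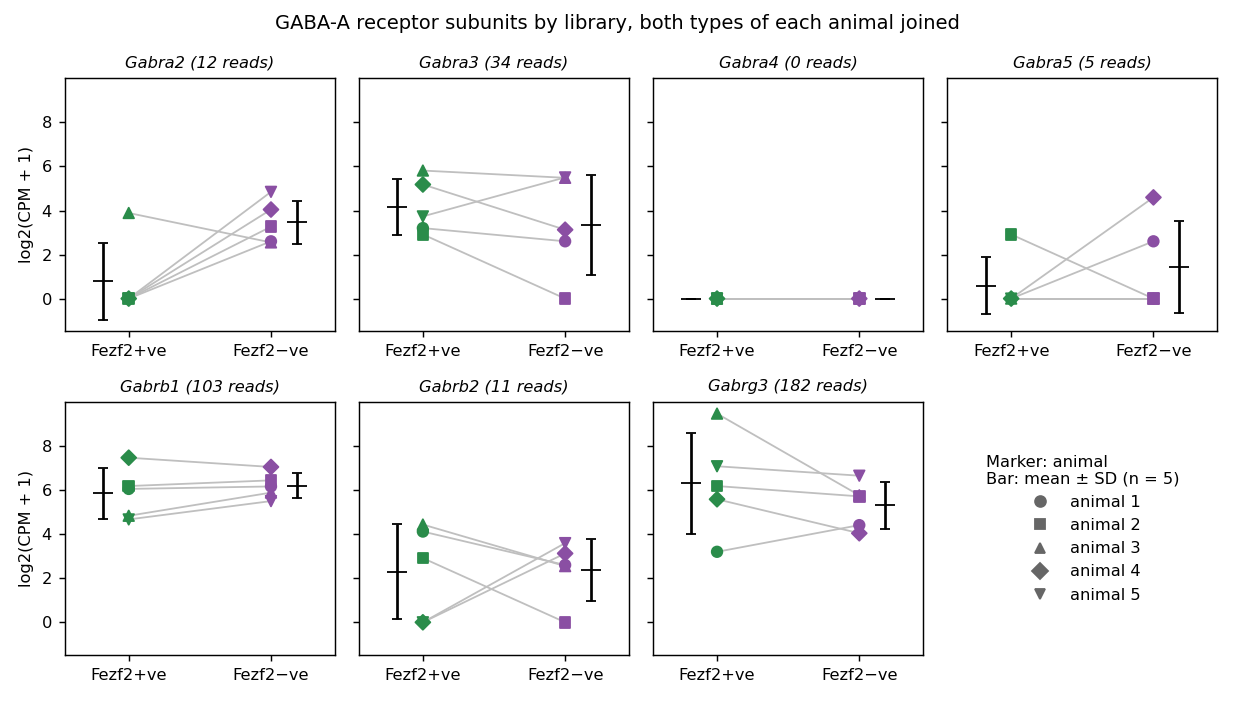
Level of each of the 7 subunit genes as log2(CPM + 1) in each library, with both libraries of an animal joined by a line and the mean ± SD (n = 5) of each type as black bars. The types overlap for each gene with reads, *Gabrb1* lies above 0 in all 10 libraries, *Gabra4* lies at 0 in all 10, and *Fezf2+ve* library 3 is the highest point of *Gabrg3*.

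Of the 7 subunits, 5 were tested and 0 were called at a false discovery rate (FDR) at or below 0.1, where 0% of the 7409 tested genes were called (edgeR with the animal as a block). The 5 had passed a filter on level, so they do not stand for all 7. At an unadjusted p under 0.05 edgeR gave 0 of the 5 subunits and 288 of all tested genes (3.89%). edgeR without the block called 279 genes (3.77%) and 0 of the 5 subunits. DESeq2 with the block gave an adjusted p to 1664 of the 7409 genes and called 98 of these (5.89%). *Gabrb1* and *Gabrg3* were the 2 subunits with an adjusted p there and neither was called, while its filter on low means gave the other 3 none; at an unadjusted p under 0.05 DESeq2 gave 302 genes and 0 of the 5 subunits. In 108 of the tested genes (1.46%) all 5 libraries of a type lay above all 5 of the other, and 0 of the tested subunits were among them. The fold changes of the subunits had no common direction, with 3 positive and 2 negative. Their median was 0.38 beside -0.16 over all tested genes, and it moved to between -0.08 and 1.09 with an animal left out, where *Gabrb2* was absent without animal 1 or 3. The 95% intervals of the tested subunits spanned from -6.07 to 3.91 in all, so a p that missed the threshold does not show equal expression.

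**Figure D2:**
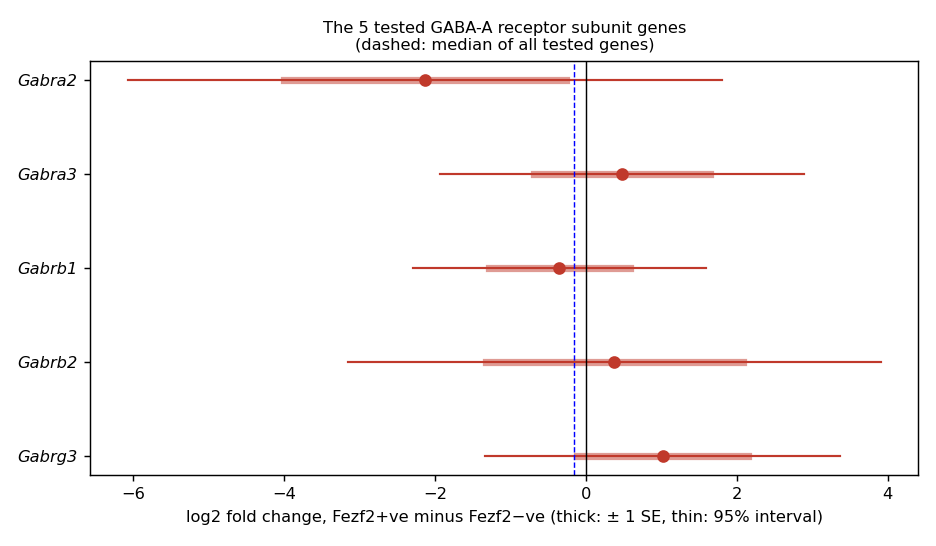
Log2 fold change (*Fezf2+ve* over *Fezf2−ve*) of the 5 tested subunits, with ± 1 standard error as thick and the 95% interval as thin lines. Each interval includes 0, and the dashed line marks the median of all tested genes at -0.16.

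Reads of the subunits rose with the length of their genes. The span from first to last annotated base was 671 kb for *Gabrg3*, 491 kb for *Gabrb1*, 224 kb for *Gabra3*, 209 kb for *Gabrb2*, 138 kb for *Gabra2*, 102 kb for *Gabra5* and 88.6 kb for *Gabra4* in GENCODE. The counts rest on RefFlat models, and in RefSeq *Gabra5* spans 183 kb. Across these 7 genes, which share the libraries, Spearman's rho between span and reads was 0.96 with GENCODE spans and 0.89 with RefSeq spans. It was 0.70 across the 19 genes of the family (0.69 with RefSeq spans) and 0.57 across 20009 protein-coding genes. These values are descriptions across genes, which are not independent replicates. *Gabrg3* and *Gabrb1* belong to the 338 protein-coding genes over 400 kb, whose median was 120 reads with quartiles of 50 and 571. *Gabra3* and *Gabrb2*, with 34 and 11 reads, belong to the class of 200 to 400 kb with a median of 39 reads and quartiles of 18 and 136, so *Gabrb2* lay below the lower quartile. *Gabra2* and *Gabra5*, with 12 and 5 reads, belong to the class of 100 to 200 kb with a median of 19 reads and quartiles of 6 and 58, so *Gabra5* lay below the lower quartile too. *Gabra4*, with 0 reads, lay below the lower quartile of 3 in the class of 50 to 100 kb, where 7.85% of genes had 0 reads.

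**Figure D3:**
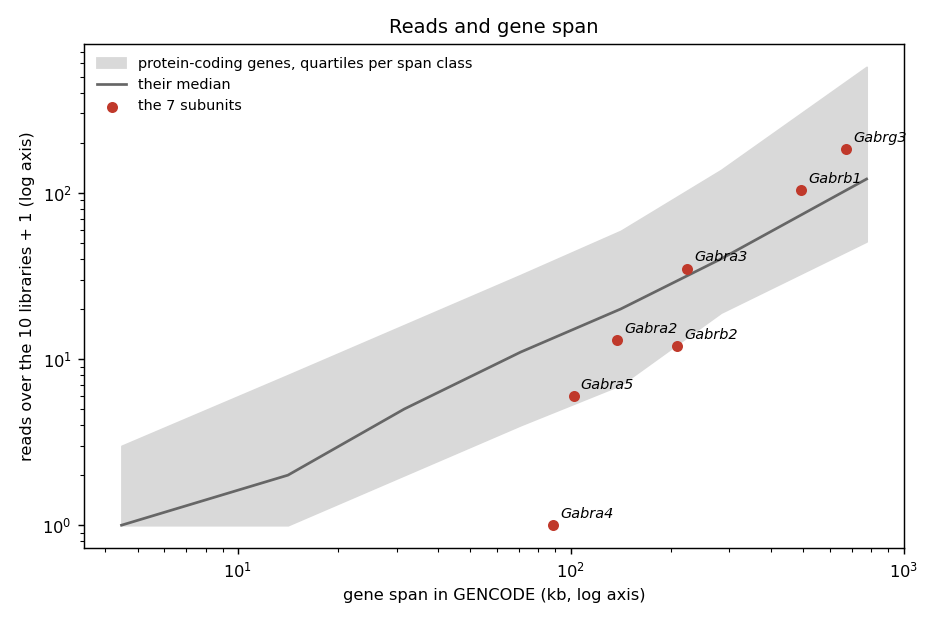
Reads over the 10 libraries plus 1 against gene span in kb, both on log axes, for the 7 subunits in red, over the quartiles and median of protein-coding genes by span class. The red points range from *Gabra4* at 0 reads to *Gabrg3* at 182 reads.

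Levels of different genes were compared per 100 kb of span. Reads within introns rise in number with the span, while reads from the 3′ end of a transcript do not, and this library preparation favours the 3′ end. The counts do not separate both kinds of read, so the scale is a description and not a measure of transcripts per cell. On that scale, with CPM from library size alone, the mean level over the 10 libraries was 20.4 ± 38.9 CPM per 100 kb (SD, n = 10) for *Gabrg3* and 14.4 ± 6.40 for *Gabrb1*. It was 9.63 ± 10.3 for *Gabra3*, 5.24 ± 5.78 for *Gabra2*, 3.70 ± 3.89 for *Gabrb2*, 2.88 ± 5.01 for *Gabra5* and 0 for *Gabra4*. With the RefSeq span *Gabra5* was at 1.61 ± 2.80. Without *Fezf2+ve* library 3 *Gabrg3* was at 8.18 ± 5.80 (SD, n = 9), below *Gabrb1* at 15.2 ± 6.19, and without *Fezf2−ve* library 4 *Gabra5* was at 1.65 ± 3.38. No pair of neighbours in this order differed by more than 1 SD of the difference over the 10 libraries. *Gabrg3* exceeded *Gabrb1* per 100 kb in 3 of 10 libraries.

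The richest library held 17 of the 103 reads of *Gabrb1* (16.5%) and 103 of the 182 reads of *Gabrg3* (56.6%). It held 9 of 34 reads of *Gabra3*, 5 of 12 of *Gabra2*, 3 of 11 of *Gabrb2* and 3 of 5 of *Gabra5*, and with so few reads such a share says little about evenness. The coefficient of variation of CPM over the 10 libraries was 0.618 for *Gabrb1* and 1.74 for *Gabrg3*.

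**Figure D4:**
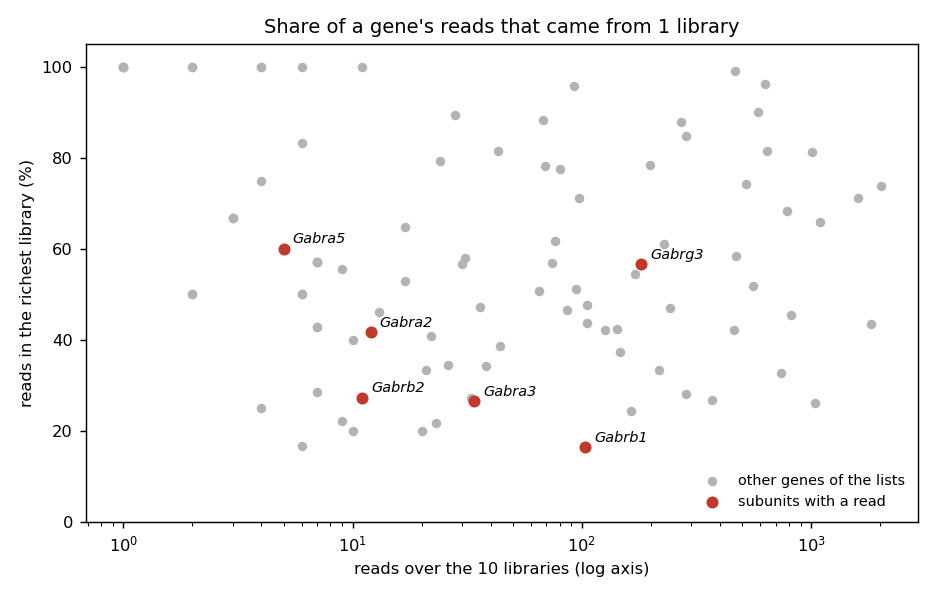
Percent of a gene's reads that came from its richest library, against its reads over the 10 libraries on a log axis, for 6 subunits with reads in red and the other listed genes in grey. *Gabrb1* lies at 16.5% and *Gabrg3* at 56.6%.

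*Gabra4* and *Gabrb1* are arranged head to head on chromosome 5 and overlap by 196 bases in GENCODE, yet *Gabra4* had 0 reads and *Gabrb1* 103. *Gabra5* overlaps the antisense gene *Gm9962* by 2270 bases in GENCODE, and the counting is not stated to use strand, so the 5 reads of *Gabra5* cannot be assigned to it with certainty.

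The annotated protein-coding transcripts of the 7 subunits, compared in the sense direction, shared only short runs of sequence. Among 21 pairs of the 7 genes, 0 shared a run of 50 bases, the shortest read kept, in any of these transcripts. Overlaps of genes on opposite strands, as of *Gabra4* and *Gabrb1*, lay outside this comparison.

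Of the other 12 subunit genes of the family, 4 were tested and 0 were called, with 0 at an unadjusted p under 0.05 in either direction. *Gabrr1*, a rho subunit gene known from the retina, had 74 reads, 42 of them in *Fezf2−ve* library 5. *Gabrd*, *Gabre*, *Gabrq* and *Gabrr2* had 0 reads.

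Genes that act with the receptor were listed by role. Of 25 anchoring and trafficking genes, 16 were tested, 0 were called and 1 had an unadjusted p under 0.05, *Mdga2* (log2 fold change 2.97, standard error 1.22). Of its 644 reads, 524 lay in *Fezf2+ve* library 3, the library that also led *Gabrg3*. In CPM *Mdga2* was higher in the *Fezf2+ve* library of 5 of 5 animals, while the groups overlapped. The scaffold gene *Gphn* (gephyrin) had 1482 of 2009 reads in *Fezf2−ve* library 1, and *Lhfpl3* had 1040 reads spread over all 10 libraries. Of 6 GABA-B receptor genes, 4 were tested, 0 were called and 1 had an unadjusted p under 0.05, the auxiliary subunit gene *Kctd12*. *Kctd12* had 199 reads in 3 *Fezf2−ve* libraries and 0 in *Fezf2+ve* libraries, which is at least 54.2-fold higher in *Fezf2−ve* against a floor of 3 reads over the type. *Fezf2−ve* library 1 held 156 of the 199 reads, and without it *Kctd12* was at least 14.6-fold higher. *Kctd16* had 20 reads.

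Of 9 genes of GABA synthesis, uptake and breakdown, 4 were tested, 0 were called and 1 had an unadjusted p under 0.05, the transporter gene *Slc6a11*. *Fezf2−ve* library 4 held 88 of its 92 reads. Of 6 chloride transport genes, 3 were tested, 0 were called and 1 had an unadjusted p under 0.05. *Slc12a5*, the chloride extruder of mature neurons, had 461 of 465 reads in *Fezf2+ve* library 2. Of 5 glycine receptor genes, 3 were tested and 0 were called, with 0 at an unadjusted p under 0.05; *Glrb* had 43 reads and *Glra2* had 30.

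Genes outside the family were compared with the summed CPM of the 7 subunits over the 10 libraries on a log2 scale. The most alike were *Macrod2* (Pearson's r = 0.92), *Camsap1* (r = 0.91) and *Ank3* (r = 0.89), given as a description over 10 libraries that share depth and scaling. The richest library of each was *Fezf2+ve* library 3 (97 of 244, 115 of 123 and 227 of 336), and without *Gabrg3* in the sum the values were 0.06, 0.49 and 0.37.

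The other marker lists did not separate the types as those of microglia did. The summed level of interneuron markers was 2206 CPM in *Fezf2+ve* library 5 and 6376 CPM in *Fezf2−ve* library 5, nearly all from *Adarb2*, and at most 208 CPM in the other 8 libraries; 6 of 11 interneuron markers had 0 reads, among them *Lhx6*, *Pvalb* and *Vip*. In *Fezf2+ve* library 3, the highest for *Gabrg3*, the summed level was 525 CPM for astrocyte, 456 CPM for oligodendrocyte, 560 CPM for oligodendrocyte precursor and 41.5 CPM for endothelial markers, none of them the highest of its type.

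**Figure D5:**
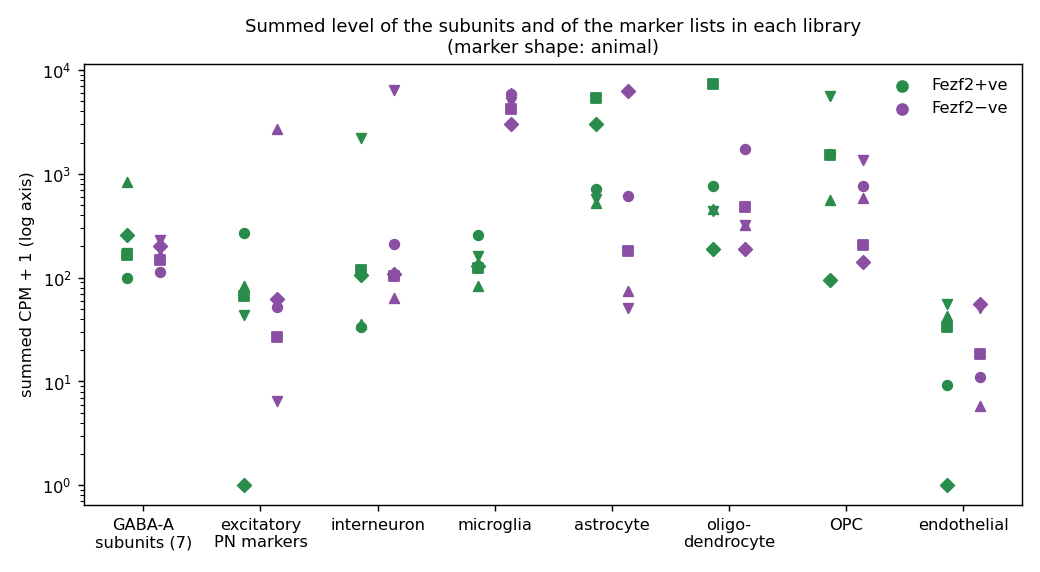
Summed CPM plus 1 on a log axis of the 7 subunits and of each marker list in every library, with *Fezf2+ve* in green, *Fezf2−ve* in purple and a marker shape for each animal. The microglia markers lie at 3019 CPM or more in *Fezf2−ve* and at 254 CPM or less in *Fezf2+ve* libraries, while the subunits overlap between the types.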

How the data were processed

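The deposited counts are whole reads per RefFlat gene, and their sum over genes is given as the depth of a library; edgeR was given the sum over tested genes. Per the labels and the methods, reads were trimmed, kept from 50 bases, mapped with TopHat2 2.1.1 to mm10 and counted with BEDTools 2.26.0. A deposited table of the authors' own comparison was not used.

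The 7409 genes that reached 10 CPM in 2 libraries or more were tested with edgeR 4.0.16 (quasi-likelihood, TMM, animal as a block, FDR at or below 0.1; R 4.3.3), or with DESeq2 1.42.0. Standard errors were derived from the F statistic. The fits were checked on simulated counts with 200 genes changed by a log2 fold of 3. The simulated counts held no animal effect and the same dispersion for all genes, so they differ from these libraries and do not check the block. At a dispersion of 0.1 edgeR with the block called 135 changed and 3 unchanged genes of 7406. Without the block it called 161 and 17, and DESeq2 with the block called 106 and 1. At the common dispersion of these libraries, 1.41, edgeR called 0 of the 200 with or without the block, and DESeq2 called 26 changed and 54 unchanged genes of 7392. After the data had been seen, 20 edgeR settings were compared (library sizes, dispersion estimate, robust and legacy fits). A legacy fit had been run first. RefSeq spans, and levels per span and lower bounds without 1 library, were also added after the data had been seen. The edgeR setting used was chosen after the counts of these settings had been seen. It was taken because its numbers of genes called and at an unadjusted p under 0.05 equalled those of earlier processing of these data. It was not taken for its values for the subunits.

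Both samples of a number came from 1 animal; their deviations correlated at -0.027 to 0.097. The members and lists were chosen with earlier results of these data known. Named are the 7 subunits and, of each list, genes with an unadjusted p under 0.05 and the 2 with most reads; other genes serve as marker examples, and some genes that the rule names are not reported here. Positions are from GENCODE on GRCm38 (mm10).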

Additional observations from a re-analysis of the deposited data

Results flagged for a closer look

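In 12 of 30 groups of 5 libraries the highest library lay far from the other 4, judged by its gap relative to the range. With reads in 1 library of a type the gap equals the range, so this is a description and not a test.

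*Gabrg3* was at 712 CPM in *Fezf2+ve* library 3 and at 8.20 to 135 CPM in the other *Fezf2+ve* libraries, and the summed CPM of the 7 subunits was 829 there against 98.4 to 259. *Gabra2* was at 13.8 CPM in *Fezf2+ve* library 3 and at 0 in the others, which rests on 2 reads. *Gabra5* was at 6.54 CPM in *Fezf2+ve* library 2 and 0 in the others, which rests on 1 read, and at 23.2 CPM in *Fezf2−ve* library 4 against 0 to 5.07.

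Summed markers stood apart in single libraries too. Excitatory projection neuron markers were at 2679 CPM in *Fezf2−ve* library 3 (5.55 to 61.9 in the others). Interneuron markers were at 2206 CPM in *Fezf2+ve* library 5 (32.8 to 118) and at 6376 CPM in *Fezf2−ve* library 5 (63.2 to 208). Astrocyte markers were at 6215 CPM in *Fezf2−ve* library 4 (50 to 608). Oligodendrocyte markers were at 7358 CPM in *Fezf2+ve* library 2 (188 to 754) and at 1723 CPM in *Fezf2−ve* library 1 (186 to 474). Oligodendrocyte precursor markers were at 5643 CPM in *Fezf2+ve* library 5 (94.1 to 1550). The part of these markers in the values of the subunits was not tested.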

How the results depend on the processing

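With the animal as a block, edgeR called 0 genes under every normalization, filter, downsampling and left-out animal tried. Without the replicate block it called 279 genes (1345 at an unadjusted p under 0.05), and DESeq2 with the block called 98. Of the 20 edgeR settings compared after the data had been seen, all called 0 genes with the block, with 284 to 311 genes at an unadjusted p under 0.05. Without the block the same 20 settings called between 0 and 646 genes, so that count depends on the setting. 3 kinds were followed further without the block: the legacy fit called 638 genes (1597 at an unadjusted p under 0.05), the robust fit 0 (1339) and whole-table library sizes 279 (1348). In the main fit, which kept the animal as a block, leaving out an animal gave 175 to 270 genes at an unadjusted p under 0.05. The cause was not tested.

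No subunit was called, or had an unadjusted p under 0.05, in any of these 20 settings with or without the block, and none was called under the other alternatives, where DESeq2 gave an adjusted p to 2 of the 5 tested subunits; the block changed no call of a subunit. Of 85 fold changes of the tested subunits under alternatives, 84 kept their sign and 1 reversed, *Gabrb2* at -0.08 without animal 2. The median over the subunits was -0.07 with no filter and -0.13 after downsampling, where *Gabra5* entered both times, and 0.25 with the stricter filter, which kept *Gabrb1* and *Gabrg3*. It was -0.08 to 1.09 with an animal left out, where *Gabrb2* was absent without animal 1 or 3. With no more than 12 reads for *Gabra2*, *Gabra5* and *Gabrb2*, depth limits what could be seen.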
